A study of Mus musculus with 6 samples.

Results

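Of the 3227 RBPJ peaks called in mitotic F9 cells, 309 lay in an exon or at a transcript end and had no listed asynchronous peak nearby. They were chosen by measured peak calls, in that no asynchronous peak center lay within 250 bp of the mitotic center. They were also chosen by position, in that the center fell in a GENCODE exon, or from 100 bp before to 1 kb past a transcript end, and outside the promoters, which reached from 1 kb before to 100 bp past any transcript start. The regions at transcript ends are called gene ends below. They include the ends of all annotated transcripts, so a center past the end of a short transcript may lie inside its gene. Itga2b gives an example. The 250 bp rule alone kept 2802 mitotic-only peaks, 86.8% of the mitotic list. The presence of these peaks in the mitotic list and their absence from the asynchronous list are therefore the rule itself and not a result, and the absence of a listed peak does not show that asynchronous cells lack RBPJ at the site. The mitotic list and the asynchronous list together held 8433 peaks.

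RBPJ is the DNA-binding effector of the Notch pathway. Without Notch signaling it sits on its motif with corepressors, and upon ligand binding the cleaved intracellular domain of Notch joins it and recruits coactivators. Most transcription factors leave chromatin when it condenses in mitosis, and the few that remain on it are studied as bookmarks, marks that may pass the state of a gene on to daughter cells. CTCF is a zinc finger protein that organizes chromatin loops and binds a long GC-rich motif of its own.

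The study asked where RBPJ is found on mitotic chromatin as compared with interphase chromatin. F9 is a murine embryonal carcinoma line derived from a testicular teratoma. Asynchronous cultures were labelled as 95% interphase and 5% mitotic cells, and mitotic cells were collected by washing them off the dish after 1 µg/ml nocodazole, a microtubule poison, for 4 hours. Both populations were precipitated with the same rabbit antibody raised against mouse RBPJ. The series holds 6 libraries, and the lists of peaks used here come from the first immunoprecipitation of each population, so that there is 1 list per population and no replicate. The second immunoprecipitations and the inputs were not used here. The lists hold positions and peak scores and no expression values, so the identity of the cells was not checked against marker genes. All intervals below are 95% intervals for counting error and leave out the variation between cultures.

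The sequences at the RBPJ motifs are shown because RBPJ is the factor that was precipitated. An RBPJ motif, TTCCCAC followed by A or G on either strand, was present in 12 of the 309 peaks, once in each. The sequences below are those of 11 of them, in order of peak score, with the 8 bases of the motif in capitals and 11 bases on either side, read 5′ to 3′ along the strand that holds the motif.
Exoc3l: tattggttgttTTCCCACGttatctctttc
Hoxb1: cagcagatattTTCCCACGggctaagttcg
Gyltl1b: aggtgctgtggTTCCCACAaatgcccagat
Mknk1: gcctcaccggcTTCCCACAgcatgaaccat
Rnf220: gcgatctggagTTCCCACGgcaacagaact
A2m: agaggctttggTTCCCACGgacagactcca
Adamts9: cggggaaccctTTCCCACGaacgtgcactt
Ces3b: agggagaaaggTTCCCACGcaagcgagatt
Nfatc3: gaacgctgcttTTCCCACAgtgagtccaac
U1: catggtcaagtTTCCCACAttggggaaaac
Zfp637: gagtgaaacttTTCCCACActggccacaga
Over the 12 peaks the motif ended in A in 6 and in G in the other 6. Its middle lay within 50 bp of the peak center in 9 of the 12 peaks, and between 58.5 and 89.5 bp from it at A2m, Mknk1 and Rnf220. In windows of the same width 2 kb to either side, a motif lay that close in 7 of the 11 that held it. Past the end of Exoc3l, which encodes a protein related to a subunit of the exocyst, the peak at chr8:107813000-107813202 scored 14.6 and was the strongest of the 12. The peak at chr11:96227729-96227931 scored 12.4 and was centered in an exon of a noncoding transcript of Hoxb1, a hindbrain Hox gene. It was the only one of the 12 in a Hox gene. Nfatc3, the host of a peak at chr8:108651911-108652113 with the score 10.2, encodes a calcium-regulated transcription factor, and this motif lay in its 3′ UTR. The peak named after U1 lay at chr17:47977722-47977924 over a gene annotated as U1 small nuclear RNA. A search that started from runs of 24 identical bases found no further match of the peak sequence in the genome at 80% identity over 50% of its length. Diverged copies without such a run would have been missed.

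A CTCF core motif with up to 1 mismatch was present in 19 of the 309 peaks, and in 6 of them it had no mismatch. No peak held both an RBPJ and a CTCF motif. The CTCF motifs of the highest scoring peaks follow, with the core in capitals and 9 bases on either side. The last 4 shared the score 12.4.
Vat1l: acccgccttCCACCAGAGGGCgctacagct
Glo1: gcgactgtaCCAGTAGAGGACtgtctcccc
Chrna1: aaggccaggCCAGTAGGGGGCgctatgagc
Ak7: tcaggttgaCCAGCAGGTGGTcgaggtact
Foxn1: gatgcgggtCCACCAGGTAGCatcctagat
Gpr124: tcctggagtCCAGCTGGGGGCgctgatgac
Zfp276: aggtgccctCCACCATATGGCtgctggctc
Vat1l and Chrna1 carried the core without a mismatch, and the other 5 carried it with 1. The Vat1l peak at chr8:116893608-116893810 scored 16.7 and lay in a noncoding exon, and the Chrna1 peak at chr2:73404263-73404465 scored 13.1 and lay in the last coding exon of this muscle acetylcholine receptor gene. The Glo1 peak at chr17:30729219-30729421 scored 14.6 and was centered 491 bp past the end of the gene for glyoxalase, an enzyme that clears methylglyoxal. In 10 of the 19 peaks the middle of the CTCF motif lay within 50 bp of the peak center. A motif lay that close in 16 of the 27 windows with the motif at 2 kb to either side. The same held for 109 of the 171 other mitotic-only peaks with the motif. It also held for 85 of 102 asynchronous-only peaks of exons and gene ends, which were narrower, at 173 bp.

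The share of peaks with an RBPJ motif was 3.88% (2.02 to 6.69), beside 3.53% of all mitotic peaks. Windows of the same width placed 2 kb to the left and right of each peak held the motif in 11 of 617 cases, or 1.78% (0.893 to 3.17), and the difference of 2.10 percentage points had an interval from -0.0497 to 4.99. Among the 2493 mitotic-only peaks outside exons and gene ends the share was 2.25% (1.70 to 2.91), and the difference of 1.64 points had an interval from -0.138 to 4.46. Neither of these differences was larger than its counting error. The interval against the flanks treated the peaks and their own windows as independent groups. Of all 608377 windows of 203 bp that tile the exons and gene ends of the genome, 1.76% held the motif, which lies below the interval of the peaks. Between the GC quartiles of the peaks, the motif was present in 6.25% (3.16 to 10.9) of the peaks, in 2.28% of such windows and in 2.73% (0.566 to 7.76) of the flanking windows.

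The asynchronous-only peaks of the same class differed. These 447 peaks lay in exons or gene ends by the same definition and had no mitotic center within 250 bp. They held an RBPJ motif in 42 cases, or 9.40% (6.86 to 12.5), and the difference, mitotic-only minus asynchronous-only, was -5.51 percentage points (-8.99 to -1.86). The asynchronous peaks were 173 bp wide and the mitotic peaks 203 bp, and when the central 173 bp of both were searched the mitotic-only share was 3.56% and the difference was -5.84 points (-9.27 to -2.24). When only windows with a GC content between the quartiles of the mitotic-only peaks were kept, 11 of 176 mitotic-only peaks (6.25%) and 18 of 209 asynchronous-only peaks (8.61%) held the motif. The interval of that difference, from -7.70 to 3.18 points, included both 0 and -5.51. This range was set by the mitotic-only peaks and held 11 of their 12 motifs, so their share rose there from 3.88%. It therefore does not show that the difference is absent at equal GC content.

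For CTCF the gap between the populations was wider. The share with a CTCF motif was 6.15% (3.74 to 9.44) at the mitotic-only peaks of exons and gene ends, beside 8.30% of all mitotic peaks and 22.8% (19.0 to 27.0) of the asynchronous-only peaks of the same class. The difference, mitotic-only minus asynchronous-only, was -16.7 percentage points (-21.3 to -11.8). Between the GC quartiles it was 5.11% against 24.9%, and over the central 173 bp it was 5.50% against 22.8%. The flanking windows held the motif in 4.38% of cases and the other mitotic-only peaks in 6.86% (5.90 to 7.92), and the intervals of both differences included 0. Of all windows of exons and gene ends 2.25% held it, below the interval of the peaks, and between the GC quartiles 3.25% of the windows did, within the interval of the peaks there (2.36 to 9.49). The rule excluded 28 mitotic peaks of exons and gene ends because an asynchronous center lay within 250 bp. Of these 28, 7 held a CTCF motif and 0 held an RBPJ motif, and the exact interval of the latter share reached 12.3%.

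**Figure D1:**
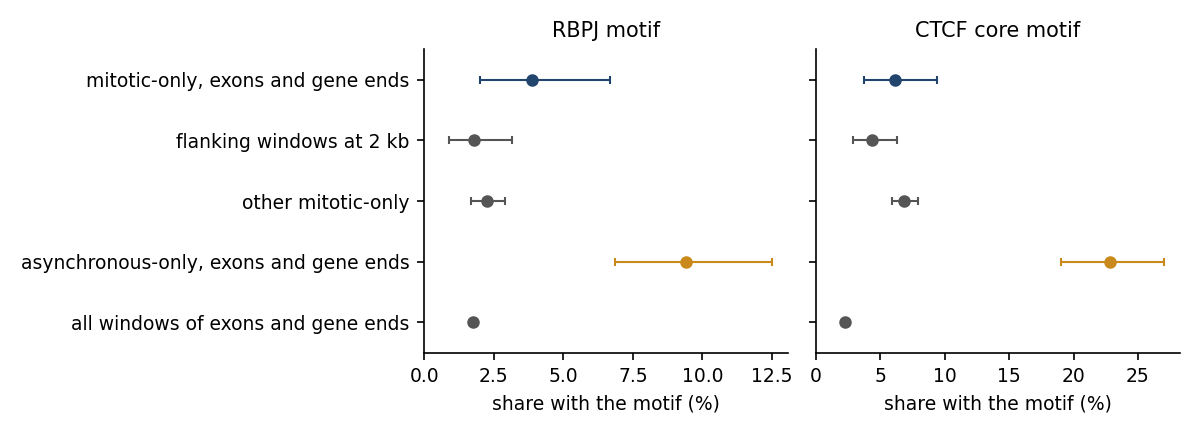
Share of windows (x axes, in percent) with an RBPJ motif (left) or a CTCF core motif with up to 1 mismatch (right) in each set of windows (y axis), with exact 95% intervals as bars. The 309 mitotic-only peaks, at 3.88% and 6.15%, lie near their flanks and the other mitotic-only peaks, and the asynchronous-only peaks, at 9.40% and 22.8%, lie to the right of them.

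The members were spread over all the parts of exons and gene ends that the rule allows, which leave out introns and promoters. Their centers lay in a coding exon in 118 cases, in a 5′ UTR in 20, in a 3′ UTR in 54, in an exon of a noncoding transcript in 44 and only in the region around a transcript end in 73. Coding exons took 38.2% (32.7 to 43.9) of the peaks, and 25.9% of the 124 Mb of exon and gene end sequence outside promoters. The 5′ UTRs took 6.47% (4.00 to 9.82) of the peaks and 1.65% of the sequence. The region past the transcript end took 23.6% (19.0 to 28.8) of the peaks and 39.4% of the sequence, so that there were fewer peaks there than its length alone would give. The exons of noncoding transcripts include the retained introns and other noncoding products of protein-coding genes, and 269 of the 309 peaks had a protein-coding host.

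Coding exons took a larger share of the mitotic-only peaks than of the asynchronous-only peaks of the class. Of the latter, 27.3% (23.2 to 31.7) were centered in a coding exon, and the difference was 10.9 percentage points (4.11 to 17.7). Past the transcript end the asynchronous-only share was 33.6% (29.2 to 38.1), and the difference was -9.93 points (-16.2 to -3.36). For the 5′ UTRs, the 3′ UTRs and the noncoding exons the differences were -0.463, -0.198 and -0.302 points, and their intervals included 0. Both the coding exon and the transcript end differences were still beyond their counting error without chromosome 8 and without the members that have a second copy in the genome.

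**Figure D2:**
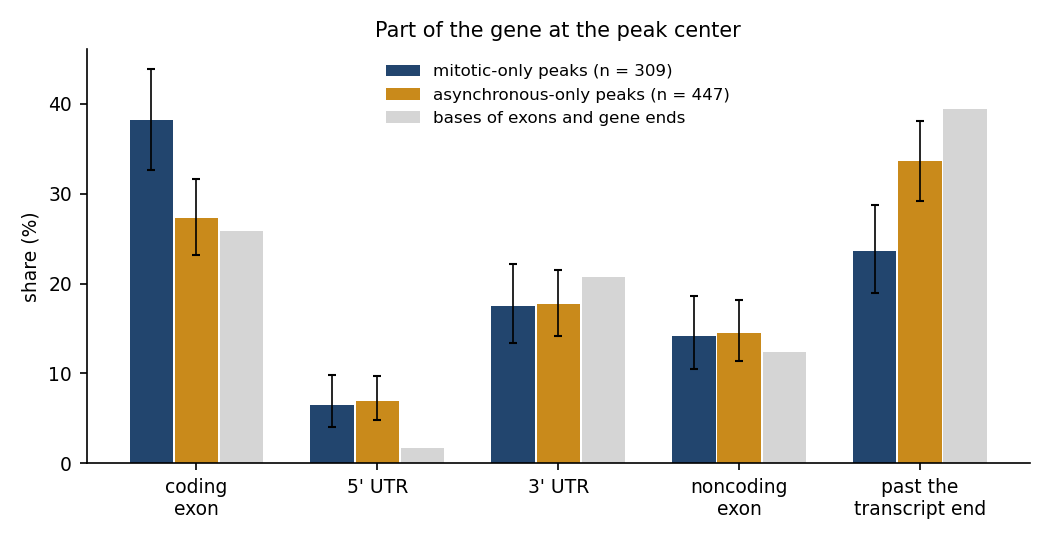
Share (y axis, in percent) of the 309 mitotic-only peaks (blue) and the 447 asynchronous-only peaks (ochre) centered in each part of the gene, with exact 95% intervals, beside the share of all exon and gene end bases in that part (grey). Coding exons hold 38.2% of the mitotic-only and 27.3% of the asynchronous-only peaks, and the order turns past the transcript end, at 23.6% and 33.6%.

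In relation to the exons of the host transcript, 93 peaks were centered in an internal exon, 97 in the last exon, 37 in the first exon and 9 in a gene with a single exon. Exon lengths here are those of merged exons, in which overlapping or adjoining exons of all transcripts are joined. The internal exons that held a peak had a median merged length of 169 bp, which is shorter than a peak. A typical peak of this kind thus reached into the introns beside the exon. Cenpt is an example. This gene encodes a kinetochore protein that joins centromeric chromatin to the microtubule attachment machinery, and its peak at chr8:108370184-108370386, with the score 12.4, was centered in coding exon 10 of 13, an exon of 76 bp. The last exons that held a peak were long, with a median merged length of 2241 bp. In all, 48 peaks lay both in an exon and in the region of a transcript end. Among the 73 peaks outside any exon, the median distance past the transcript end was 429 bp (range, -69 to 977 bp, where a negative value lies before the end).

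The sequence of the peaks was GC-rich within a narrow range, whichever part of the gene they lay in. Their median GC content was 54.2% (quartiles, 52.2 and 56.7), the lowest peak stood at 46.3% and the highest at 62.6%. Of all tiling windows of exons and gene ends, with a median of 45.8%, 51.3% were below the lowest peak and 2.65% above the highest. The flanking windows had a median of 48.3%, and 256 of the 309 peaks, or 82.8% (78.2 to 86.9), were more GC-rich than the mean of their own flanks, by a median of 5.67 percentage points. The median over the peaks of coding exons was 54.7%, and it was 55.7% in 5′ UTRs, 54.2% in 3′ UTRs, and 53.7% both in noncoding exons and past the transcript end. The corresponding windows of the genome ran from 43.8% in 3′ UTRs and past the transcript end to 52.7% in 5′ UTRs.

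A GC content above that of the flanks was also found in the other sets of peaks. The median was 53.2% (quartiles, 51.2 and 55.7) over the other mitotic-only peaks and 56.1% (54.3 and 58.4) over the asynchronous-only peaks of the class, so that the latter had a higher median than the members. Of the other mitotic-only peaks, 84.9% (83.4 to 86.3) were more GC-rich than their own flanks and 98.2% fell within the same range of GC content, and of the asynchronous-only peaks of the class 87.0% and 98.4% did so. Hoxc13, a Hox gene of skin and hair, shows the contrast at its clearest among the Hox peaks, with 55.7% GC in its 3′ UTR peak at chr15:102757876-102758078 and a mean of 34.5% in its flanks. In the opposite direction, the peak past the end of Gsc, the goosecoid homeobox gene, had 52.7% GC between flanks of 64.5%. Gsc was chosen here after its values were seen.

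**Figure D3:**
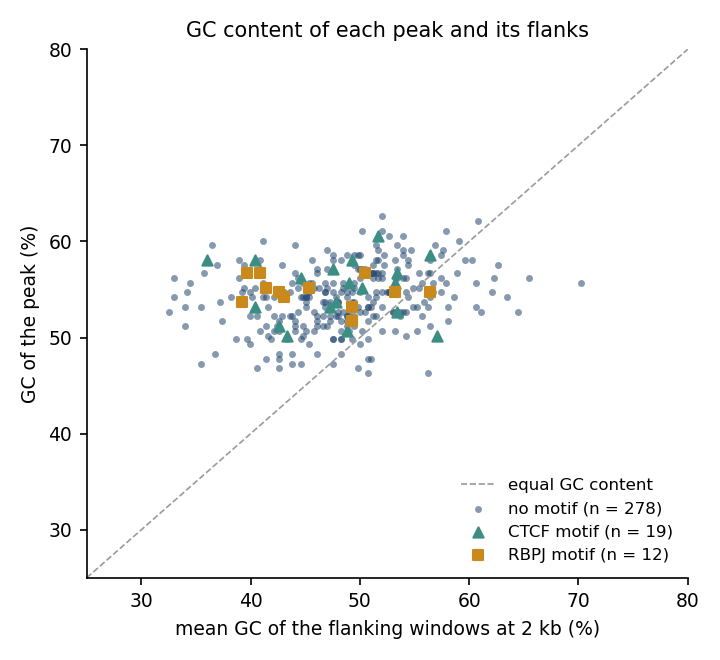
GC content of each of the 309 mitotic-only peaks of exons and gene ends (y axis, in percent) against the mean GC content of its flanking windows at 2 kb (x axis, in percent), with the peaks that hold a CTCF or RBPJ motif marked. The peaks fill a band from 46.3% to 62.6% while the flanks spread far more widely, and 256 of the 309 points lie above the line of equal GC content.

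CpG dinucleotides, the sites of DNA methylation, were less depleted in the peaks than around them. The median ratio of observed to expected CpG was 0.326 in the peaks (quartiles, 0.191 and 0.493) and 0.211 in the flanking windows, and 214 of the 309 peaks, or 69.3% (63.8 to 74.4), were above the mean of their own flanks. The peaks of coding exons had a median ratio of 0.423, beside 0.324 in all windows of coding exons, and the peaks past the transcript end had 0.231, beside 0.159. Windows with over 50% GC and a ratio over 0.6 made up 12.6% (9.13 to 16.8) of the peaks, 5.51% (3.85 to 7.62) of their flanks and 3.76% (2.67 to 5.12) of the 1011 mitotic-only peaks in introns. The difference to the introns was 8.86 points (5.34 to 13.2). Over all mitotic-only peaks outside exons and gene ends the share was 9.59% (8.46 to 10.8), the interval of the difference, from -0.436 to 7.34 points, included 0, and over all mitotic peaks it was 13.0% (11.9 to 14.2). The asynchronous-only peaks of the class were higher, with 18.3% (14.9 to 22.2).

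The full sequences of 4 high-scoring members show this range, with each CpG in capitals on the plus strand of mm9. The Pisd-ps1 peak, at chr11:3027110-3027312, scored 70.6, far above all others. The Sp1 peak, at chr15:102239870-102240072, holds no CpG, and the Klf5 peak at chr14:99700713-99700915 and the Nrxn2 peak at chr19:6490561-6490763 hold 7 and 8, although these 3 lie in coding exons with 53.2 to 54.7% GC and share the score 13.8.
Pisd-ps1: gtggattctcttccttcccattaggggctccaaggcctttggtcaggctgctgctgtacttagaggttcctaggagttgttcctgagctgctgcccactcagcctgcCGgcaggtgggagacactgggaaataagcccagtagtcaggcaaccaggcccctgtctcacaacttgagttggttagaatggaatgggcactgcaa
Sp1: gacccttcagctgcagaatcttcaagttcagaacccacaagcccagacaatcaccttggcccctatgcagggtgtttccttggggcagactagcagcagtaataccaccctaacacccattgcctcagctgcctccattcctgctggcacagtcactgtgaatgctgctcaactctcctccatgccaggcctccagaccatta
Klf5: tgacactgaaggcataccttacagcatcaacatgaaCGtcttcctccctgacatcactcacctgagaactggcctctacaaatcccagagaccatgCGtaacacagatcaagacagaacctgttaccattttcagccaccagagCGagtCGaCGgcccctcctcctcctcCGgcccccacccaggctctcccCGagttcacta
Nrxn2: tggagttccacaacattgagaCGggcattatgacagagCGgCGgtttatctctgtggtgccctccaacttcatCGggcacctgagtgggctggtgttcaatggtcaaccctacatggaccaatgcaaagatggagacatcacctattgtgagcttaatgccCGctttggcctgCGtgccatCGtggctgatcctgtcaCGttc
Sp1 and Klf5 encode zinc finger transcription factors that bind GC-rich sequence, and Nrxn2 encodes neurexin, a presynaptic adhesion protein. The Klf5 peak was centered in exon 2 of 4 and the Sp1 peak in exon 3 of 6.

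AATAAA, the hexamer that marks polyadenylation sites, was less frequent in these peaks than in the windows around them. In the other sets of peaks its share was also below that of all windows of exons and gene ends. The flanking windows of those sets were not compared. It was present on either strand in 14 of the 309 peaks, or 4.53% (2.50 to 7.49), against 20.9% (17.8 to 24.3) of the flanking windows and 22.7% of all windows of exons and gene ends. The other mitotic-only peaks held it in 7.02% (6.05 to 8.09) of cases, those in introns in 7.12% (5.61 to 8.88) and the asynchronous-only peaks of the class in 3.80% (2.23 to 6.02). Among the 73 peaks past a transcript end it was present in 5, or 6.85% (2.26 to 15.3), against 27.2% of the windows there. GC content moved with this: among windows between the GC quartiles of the peaks the hexamer was present in 3.41% (1.26 to 7.27) of the peaks. It was present there in 4.55% (1.49 to 10.3) of the flanking windows and in 5.52% of all windows, both within the interval of the peaks. The part of GC content in the lower share was not tested.

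The scores are given as a description, since being called at all was part of the rule. They ran from 10.2 to 70.6 with a median of 10.9, and the mitotic list as a whole started at 10.2 and had the same median. The lowest score was shared by 135 of the 309 peaks, 301 scored under 15, and 8 were among the 100 highest scoring peaks of the mitotic list. Most of these peaks thus stood at or near the lowest score that the list holds. The steps of the scores were taken by nearly the same shares of the other mitotic-only peaks, of which 45.5% had the lowest score against 43.7% here.

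**Figure D4:**
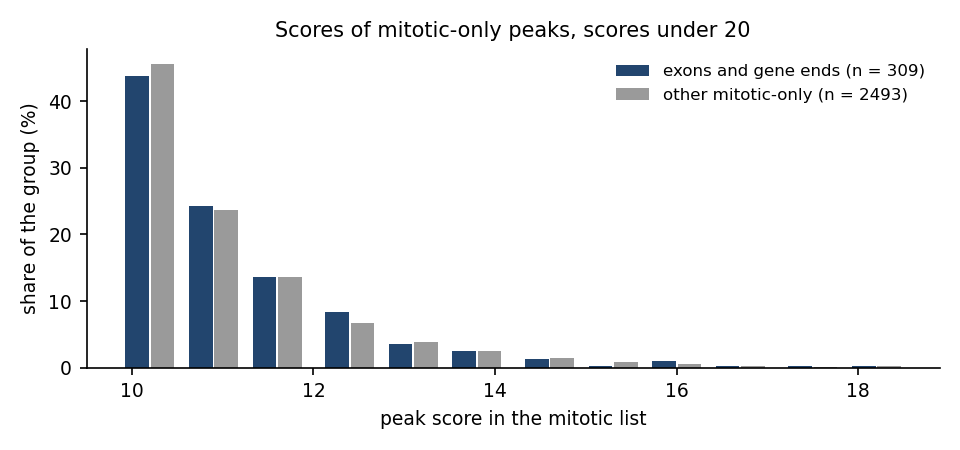
Share (y axis, in percent) of the 309 mitotic-only peaks of exons and gene ends (blue) and of the 2493 other mitotic-only peaks (grey) at each peak score (x axis, no unit given), for scores under 20. Both fall from the lowest score, 10.2, at 43.7% and 45.5%, and the only member above the plotted range is Pisd-ps1 at 70.6.

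Pisd-ps1 held the highest scoring member, the 4th highest peak of the whole mitotic list. It is annotated as a processed transcript related to the phosphatidylserine decarboxylase gene, and the peak sequence matched 2 further places in the genome, at up to 97.0% identity. The next was centered 660 bp past the end of Gm8994, at chr6:136280560-136280762 with the score 18.2, and it too had a second copy at 95.1% identity. Aars, the alanyl-tRNA synthetase gene, followed with 17.5 in the 3′ UTR at chr8:113579134-113579336, then Vat1l with 16.7.

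A score of 16.0 was shared by 3 members. Plk3, which encodes a Polo-like kinase of the stress response and the cell cycle, held one in coding exon 6 of 15 at chr4:116804410-116804612. Esrrb, which encodes an orphan nuclear receptor of the pluripotency network, held one in its 3′ UTR at chr12:87860246-87860448, with the nearest asynchronous center 14922 bp away. Patz1, which encodes a BTB zinc finger repressor, held one in a noncoding exon at chr11:3192881-3193083. Below them came Eef2, the translation elongation factor gene, with 15.3 at chr10:80641775-80641977, where the peak also overlapped the region of the small nucleolar RNA gene Snord37. St6galnac1, Glo1, Gm15082 and Exoc3l shared 14.6. The next 8, tied at 13.8, were at Fam129b, Gm16084, Gsr, Klf5, Nrxn2, Sox5, Sp1 and Zc3h7a.

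Of the gene lists, the Notch list held 1 peak, at chr5:121129427-121129629 with the lowest score, 10.2, where the 3′ end of Rasal1, its host, and the region of the end of Dtx1 overlap. Dtx1 encodes Deltex, a ubiquitin ligase that acts on Notch. This 1 peak is 0.324% of the members, beside 0.189% of the windows of the class that lie in genes of the list. No member lay in Notch receptor, ligand, Hes or Hey genes of the list, nor in the gene of RBPJ itself, while 2 asynchronous-only peaks of the class lay in list genes, at Notch1 and Hes3. The Wnt list held 0 members, beside 0.198% of the windows, and 3 asynchronous-only peaks. If 3 counts are taken as the limit for a count of 0, a share of up to 0.971% is allowed. Hox genes held 2, at Hoxb1 and Hoxc13, or 0.647%, beside 0.0934% of the windows, and the asynchronous-only peaks held none. The list of kinesins and of kinetochore and spindle genes held 2, at Plk3 and Cenpt, or 0.647% of the peaks, where 0.369% of the windows of the class lie in genes of the list. The histone list held 1, in H1f0, the gene of a linker histone that the annotation places among pseudogenes, with the score 10.9, or 0.324% beside 0.0968% of the windows, and 4 asynchronous-only peaks.

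The other lists, whose members were named after their values were seen, were as small. Zinc finger protein genes held 5 members, or 1.62%, beside 1.64% of the windows, and the cytosolic ribosomal proteins held 1, past the end of Rps19. Protocadherins, the adhesion proteins of neurons, held 3 members, at Pcdh10, Pcdh17 and Pcdhb21, or 0.971%, beside 0.216% of the windows and none of the asynchronous-only peaks. Small RNA genes held 10 members (3.24% against 3.96% of the windows) and pseudogenes 9 (2.91% against 6.68%). The large families of olfactory, vomeronasal and taste receptors, which take 2.44% of the windows, held 0. With counts of 0 to 10, these lists are descriptions of where the peaks lay.

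Some hosts encode transcription factors of development. A list of developmental families (among them the Hox, Sox, Fox, T-box, Nkx, Klf and Sall families), drawn up after the hosts had been seen, held 18 members or 5.83%, where 0.783% of the windows and 1.34% of the asynchronous-only peaks lay in such genes. The hosts or overlapping genes included Barhl2, Foxh1, Foxk1, Foxn1, Gsc, Hand1, Hoxb1, Hoxc13, Klf13, Klf5, Nkx2-3, Pitx3, Sall1, Sox5, Tbx1, Tbx2 and Tlx1. Because the list was drawn up from the hosts, its count was not tested, and the shares beside it are no independent comparison. The highest scores among them were 13.8 at Klf5 and Sox5 and 13.1 at Tbx2, a T-box gene, and Nkx2-3, a homeobox gene. The Sox5 peak at chr6:143909330-143909532 lay in a coding exon and had its nearest asynchronous center 400261 bp away, and the Tbx2 peak at chr11:85656037-85656239, past the end of the gene, had it 489743 bp away.

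A list of pluripotency factors, also drawn up after the hosts had been seen, held 4 members, or 1.29%, beside 0.0725% of the windows, and this count was not tested for the same reason. They were Esrrb, with the score 16.0, Klf5, with 13.8, Utf1, with 12.4, and Fgf4, with 10.9. Utf1 encodes a chromatin factor of undifferentiated cells and its peak at chr7:147131840-147132042 was centered 933 bp past the gene end. Fgf4 encodes a growth factor of the early embryo and its peak at chr7:152050600-152050802 lay in the 3′ UTR. The asynchronous-only peaks held 3, at Prdm14, Stat3 and Zfp42. The nearest asynchronous centers were 2537 bp away at Fgf4, 3216 bp at Klf5 and 3934 bp at Utf1, so that both lists had peaks in the neighborhood of these 3 genes. These genes are known for their activity in embryonal carcinoma cells, but no expression was measured in the files used here.

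The 309 peaks had 304 host genes, and 5 genes held 2 peaks each. At Ngb, the neuroglobin gene, the centers were 566 bp apart, with scores of 13.1 and 12.4 in the 3′ UTR and the coding part of the last exon. At Gm8994 they were 1459 bp apart, at Mknk1, a kinase gene, 10122 bp, at Itga2b, the platelet integrin gene, 11516 bp, and at C920025E04Rik 453 bp. Within 10 kb of 58 of the 309 peaks lay another mitotic peak, and the same held for 372 of the 2493 other mitotic-only peaks.

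Of the distances to asynchronous peaks, which the rule used, the nearest was 331 bp and the farthest 6642993 bp, with a median of 34370 bp. Just inside the rule were Gpr124, a coding exon peak with the score 12.4 at 331 bp, Caprin1 with 10.2 at 340 bp and Slc35e4 with 12.4 at 385 bp. Just outside it were Gm10807 with 12.4 at 169 bp, Pskh1 with 13.1 at 163 bp and Ninj2 with 13.8 at 159 bp. No peak of exons and gene ends thus fell between 169 and 331 bp. Within 500 bp of an asynchronous center were 5 members, and 87, or 28.2%, were more than 100 kb from the nearest.

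Chromosome 8 carried more of these peaks than any other. It held 46 members, or 14.9%, and 4.39% of the exon and gene end bases, and it also held 17.1% of the other mitotic-only peaks and 9.84% of the asynchronous-only peaks of the class. Chromosome 12 held 24 members, or 7.77%, and 3.22% of the bases, with 10.5% of the other mitotic-only peaks and 2.91% of the asynchronous-only peaks. A stretch of 10 Mb of chromosome 12, from 100 to 110 Mb, held 13 members, the most of any such stretch, among 121 mitotic and 85 asynchronous peaks in all. At the other end, chromosome 13 held 1 member and the X chromosome none, where they take 3.53% and 5.45% of the bases. The X chromosome held 18 of the other mitotic-only peaks and 13 of the asynchronous-only peaks of the class. The reads of the inputs were not used here, so the part that the number of reads per chromosome had in these shares was not tested.

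**Figure D5:**
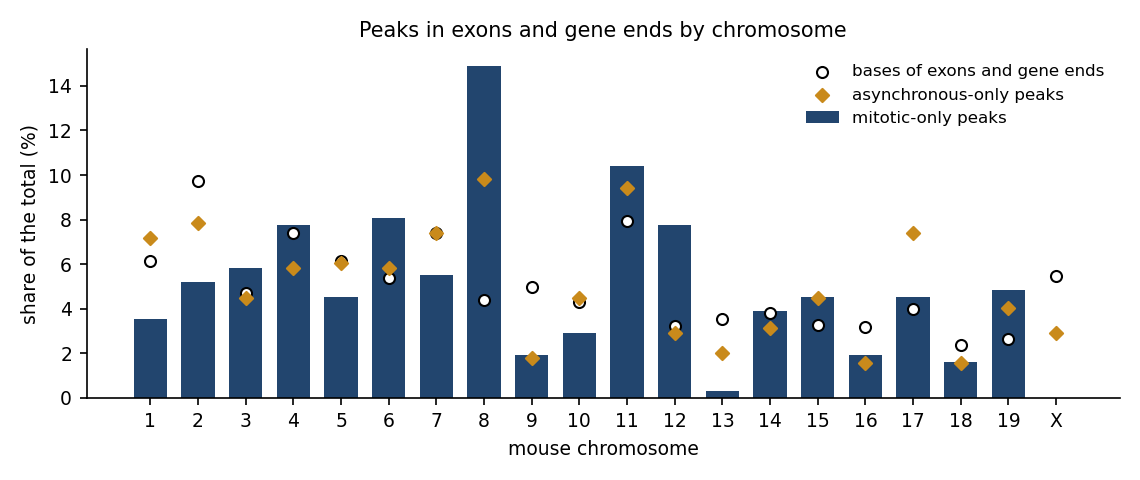
Share (y axis, in percent) of the 309 mitotic-only peaks of exons and gene ends on each mouse chromosome (x axis), as bars, beside the share of exon and gene end bases (open circles) and of the 447 asynchronous-only peaks of the class (diamonds). Chromosome 8 stands at 14.9% against 4.39% of the bases, and no member lies on the X chromosome.

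A second copy in the genome, at 90% identity or more over at least 90% of the peak, was found for 15 of the 309 peaks, or 4.85% (2.74 to 7.88). Of the mitotic-only peaks in introns, 2.97% (2.01 to 4.21) had one, and the interval of the difference, from -0.373 to 5.01 points, included 0. The hosts named here were also chosen after their values were seen. Tsnax, whose peak lies past the gene end at chr8:127558736-127558938, had a copy that matched at 100% identity, and Gm8994 had one at 99.0% for the peak in its coding exon. Serpina1a and Serpina3f, from the serpin cluster of liver genes, had 5 copies each. The authors kept only reads with a single best place in the genome, and where copies are this close the assignment of the peak to one of them is uncertain. Without these 15 peaks the RBPJ share was 4.08% and the CTCF share 5.78%.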

How the data were processed

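The authors aligned reads uniquely to mm9 with Bowtie 0.12.7, used HOMER with the input of each population as background for peak calling, and retained peaks whose tag density exceeded 1 RPM. The deposited lists give a position and a score per peak, and the score, whose unit is not given in the sources used here, was used within the mitotic list only. The width is 203 bp in the mitotic and 173 bp in the asynchronous list. Neither list gives read depth.

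Peak centers were placed in GENCODE vM1 for NCBIM37, the assembly of mm9, in the order coding exon, 5′ UTR, 3′ UTR, noncoding exon and transcript end. The host was the transcript of that part with the longest genomic span, and transcripts of protein-coding genes, whether coding or not, came before others. Motifs were searched on both strands with pysam 0.24.0, and copies with blastn 2.17.0, which required a run of 24 identical bases to start a match. Shares have exact Clopper-Pearson and differences Newcombe 95% intervals from scipy 1.17.1, and with 1 list per population no p-value was computed. The motif search, the nearest distances and the Newcombe intervals were tested on simulated data. The split into promoters and exons was checked on the annotation of 1 chromosome. The other steps were not tested in this way.

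Named were the 15 members of highest score with ties, members of the Notch, histone, Wnt, Hox and kinetochore lists, genes with several members, up to 12 members with an RBPJ and 6 with a CTCF motif with ties, and those nearest the 250 bp limit. The members and lists were chosen with earlier results of these data known. Some members that the rule names are not reported here.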

Additional observations from a re-analysis of the deposited data

How the results depend on the processing

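Of 102 values recomputed under alternatives, 85 kept their direction, size or side of 0. No paired analysis was possible because the files used hold 1 list per population. With scores at or above the list median, 174 members were left instead of 309. Under the shorter TTCCCA motif the RBPJ share was 23.9% and its excess over the flanks 5.96 points, past its counting error, as was the excess of 2.37 points with no asynchronous center within 1 kb. For motifs within 50 bp of the center, the excess over the other mitotic-only peaks was 1.59 points and excluded 0. Between the GC quartiles, an alternative chosen after seeing the data like the copies, chromosome 8 and the central 173 bp, the RBPJ difference to the asynchronous-only peaks was -2.36 points and no longer excluded 0. The CTCF share was 1.94% with no mismatch, 26.9% with 2 and 3.24% within 50 bp of the center. Its excess over the flanks became larger than counting error at no mismatch (1.46 points), at 2 mismatches (5.79) and with annotation by any overlap (2.99). The CTCF difference to the other mitotic-only peaks changed sign in these 3 cases, to 0.177, 0.868 and 0.0572 points, each within its counting error. Copies at 80% identity over 50% of the peak were found for 12.0%, a share that leaves out copies without a run of 24 identical bases. At 95% identity the difference to the introns, 1.88 points, excluded 0. The causes were not tested.
The number of peaks limits every share, and 1 list per population leaves the variation between cultures unmeasured. Asynchronous reads at the positions of the mitotic-only peaks were not used here, so signal below the calling threshold was not tested.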
